A study of Mus musculus with 18 samples.

Results

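The genes of glycolysis and of the hypoxia response were followed through the knockdown of Rnf185 in MPC3 cells, a mouse prostate cancer cell line. A list of 35 symbols, naming glycolytic enzymes, hypoxia-inducible factors, their regulators and their targets, defined the members. The list was set by gene function and not by a rule on measured values. It was chosen with earlier results of these data known, so it may not be independent of them. All 35 were present among the 47643 genes of the count table, and 34 of them were among the 14309 genes with enough counts to be tested. The exception was Pdk4, a pyruvate dehydrogenase kinase, which had 0 to 3 counts in any library. By role, the 34 were 17 glycolytic enzymes, 4 regulators of glycolytic flux, 5 genes of the hypoxia-inducible factor and its oxygen sensing, and 8 hypoxia targets.

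The series holds 18 polyadenylated RNA libraries in 3 groups of 6. Control cells carry plko in their titles and are given as Control. The other groups express shRNF185.1 or shRNF185.3, a pair of short hairpin RNAs against Rnf185, which encodes a ubiquitin ligase of the endoplasmic reticulum membrane. All groups share the MPC3 background, so the data describe a single cell line, and the labels give no oxygen level, medium, cell density or harvest time. The labels place replicates 1 and 2 of every group in batch 1, replicates 3 and 4 in batch 2 and replicates 5 and 6 in batch 3. Nothing states whether libraries of a group and batch came from separate cultures, so p-values measure the spread between these libraries, which may be technical.

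Glycolysis converts glucose to pyruvate and lactate. Its flux is set mainly at hexokinase and phosphofructokinase, and tumour cells often run it fast even with oxygen present. The hypoxia-inducible factor (HIF) couples the pathway to oxygen. In oxygenated cells, prolyl hydroxylases encoded by the Egln genes mark the alpha subunits (Hif1a, and Epas1 for HIF-2 alpha), and the Vhl product directs their destruction. When oxygen falls, the alpha subunit is stabilised, mostly at the protein level, and binds promoters of nearly all glycolytic genes and of targets such as Car9, Bnip3, Ankrd37, Ndrg1 and Adm.

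Libraries held 22027395 to 43379662 counts, and the deepest was control replicate 4. Levels are the deposited library-scaled counts (CPM). Rnf185 averaged 35.9 ± 1.96 CPM in control. Under shRNF185.1 it averaged 5.81 ± 0.582 CPM and under shRNF185.3 it averaged 5.80 ± 0.546 (SD, n = 6 for each group), and every hairpin library was below every control library. Within batches its log2 fold change lay between -2.84 and -2.44, and its group by batch interaction had an edgeR adjusted p of 0.424. The epithelial markers Krt8 and Krt18 and the prostate marker Hoxb13 were expressed, whereas Pbsn and Epcam were at or near 0. The summed level of 7 immune markers stayed between 1.77 and 5.09 CPM and that of 5 endothelial markers between 0.163 and 1.71 CPM. The 8 fibroblast and mesenchymal markers summed to 4344 to 5677 CPM, mostly Vim and S100a4, which averaged 3201 and 1353 CPM in control. Of the others there, Pdgfrb averaged 157, Pdgfra 89.6, Dcn 24.9, Acta2 17.1, Lum 0.253 and Thy1 0 CPM. In bulk RNA, a change in the share of cells expressing a gene and a change in RNA per cell cannot be told apart.

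Promoter sequence was examined because most members moved together within batches, as given further on. The hypoxia response element recognised by HIF has the core ACGTG or GCGTG. Both were searched on both strands, where they read CACGT and CACGC in reverse, in the 250 bases before each RefSeq start on GRCm38.p6. ACGTG overlaps the E-box CACGTG, whose palindrome counts on both strands. RefSeq had a window for 32 of the 35 members and none for Epas1, Bnip3l and Ndrg1. A match was found in 28 of the 32 and in 75.5% of their 49 windows, against 38.6% of all 32851 windows and 54.3% of windows within the interquartile range of the members' GC content. The next sequences are exon-free stretches before a RefSeq start, 5′ to 3′ on the gene's strand with matches in capitals. The first 4 genes differed between batches in their response to the hairpins, and the last pair, Pfkm and Ldhb, did not pass that test. All stretches shown hold a match. Other windows of Ldha and Pfkm are not shown, among them a Pfkm window without a match. Among members with a window, Eno2, Gpi1, Tpi1 and Vhl held no match. Of these, Gpi1, Tpi1 and Vhl passed the test for a difference between batches.
Bnip3, chr7:138909520-138909756, minus strand: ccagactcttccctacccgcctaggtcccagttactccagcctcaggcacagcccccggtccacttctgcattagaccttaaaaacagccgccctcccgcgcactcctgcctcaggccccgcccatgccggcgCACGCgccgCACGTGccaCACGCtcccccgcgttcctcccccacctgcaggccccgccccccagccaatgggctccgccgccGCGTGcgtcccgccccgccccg
Ldha, chr7:46845554-46845803, plus strand: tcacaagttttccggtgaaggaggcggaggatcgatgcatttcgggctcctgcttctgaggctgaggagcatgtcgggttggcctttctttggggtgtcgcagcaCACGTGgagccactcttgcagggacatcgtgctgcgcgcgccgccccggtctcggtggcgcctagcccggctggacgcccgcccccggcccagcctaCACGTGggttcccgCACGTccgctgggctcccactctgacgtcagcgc
Pgk1, chrX:106186850-106187099, plus strand: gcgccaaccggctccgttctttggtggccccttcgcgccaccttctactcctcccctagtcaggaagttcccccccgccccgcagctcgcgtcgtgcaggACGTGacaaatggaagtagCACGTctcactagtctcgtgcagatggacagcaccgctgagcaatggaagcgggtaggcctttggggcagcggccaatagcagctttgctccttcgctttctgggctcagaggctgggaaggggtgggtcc
Adm, chr7:110627407-110627656, plus strand: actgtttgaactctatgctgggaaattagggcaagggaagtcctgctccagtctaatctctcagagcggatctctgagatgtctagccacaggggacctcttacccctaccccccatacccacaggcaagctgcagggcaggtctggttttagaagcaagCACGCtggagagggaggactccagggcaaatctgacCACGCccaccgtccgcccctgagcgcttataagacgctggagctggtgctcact
Pfkm, chr15:98092339-98092588, plus strand: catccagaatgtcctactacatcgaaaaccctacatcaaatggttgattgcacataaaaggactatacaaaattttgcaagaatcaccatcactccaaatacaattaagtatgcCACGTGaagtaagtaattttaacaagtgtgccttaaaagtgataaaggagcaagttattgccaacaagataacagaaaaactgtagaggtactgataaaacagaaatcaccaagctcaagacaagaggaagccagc
Ldhb, chr6:142507958-142508207, minus strand: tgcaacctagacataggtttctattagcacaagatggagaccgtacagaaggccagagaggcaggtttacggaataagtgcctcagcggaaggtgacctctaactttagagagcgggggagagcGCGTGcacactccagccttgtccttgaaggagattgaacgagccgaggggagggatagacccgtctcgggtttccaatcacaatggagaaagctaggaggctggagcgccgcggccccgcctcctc
The Ldha window held 5 ACGTG matches counted over both strands, and the Bnip3 window held 5 matches of either kind. Pfkm, which did not pass the batch test, also held a CACGTG, and Ldhb held a single GCGTG. A match is a description of these letters and shows no binding. The list was chosen to name targets of HIF, so a share of matches above that of all windows can follow from that choice. The part of these matches in the batch pattern was not tested.

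Levels were compared between genes as CPM per kilobase of exon, in control libraries. Pkm, the pyruvate kinase that makes pyruvate and ATP, was highest at 946 (745 to 1207), followed by the phosphoglycerate mutase Pgam1 at 771, the lactate dehydrogenase subunit Ldha at 683 and Pgk1 at 628. Neighbours among the top 8 genes, which end with Gapdh at 349, had overlapping ranges. Within enzyme families, 1 isoform predominated. Ldha stood at 683 (461 to 894) against 1.63 (1.11 to 2.16) for Ldhb, the subunit of heart-type lactate dehydrogenase. Eno1 stood at 539 against 0.170 for the neuronal enolase Eno2, and Aldoa at 459 against 3.47 for Aldoc. The liver-type phosphofructokinase Pfkl was at 60.9, the muscle type Pfkm at 20.0 and the platelet type Pfkp at 6.53. The length counts every annotated exon of a gene, 13401 bases for Pfkp and 3340 for Pfkm. Before division by length, Pfkp averaged 87.6 CPM and Pfkm 66.6 CPM in control, so the order of this pair rests on the length used. Hk1, at 39.2 (27.1 to 55.0), exceeded Hk2, at 19.1 (14.9 to 26.1), in range as well as mean. Hif1a was at 56.1 and Epas1 at 0.106, with 7 to 27 counts a control library for the latter. Levels of Pgk1, Pgam1, Eno1, Gapdh, Pkm and Bnip3l carry uncertainty, because 52.8%, 34.9%, 23.0%, 22.6%, 17.8% and 16.9% of their 75-base windows match another annotated gene, mostly processed copies, and the counting could split such reads.

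**Figure D1:**
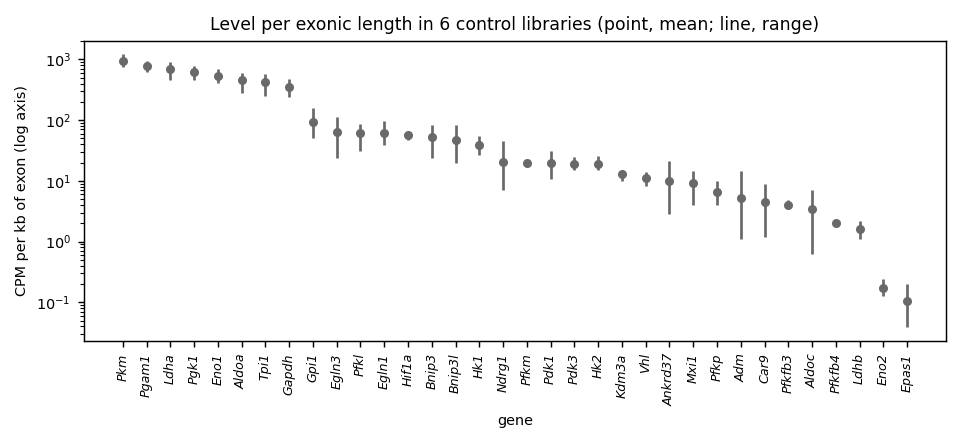
Level of 34 genes in the control group, in CPM per kilobase of exon on a log axis; points are means and lines the range over 6 libraries. The levels run from 946 for Pkm to 0.106 for Epas1, and the genes with the longest lines include Aldoc, Adm, Ankrd37 and Car9.

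The group comparison asked which members differed over all 6 libraries a group. Few did: Ldhb and Eno2 rose with both hairpins, Pfkm, Pfkfb3 and Pfkfb4 rose with shRNF185.3, and Hif1a rose in the mean of both hairpins. Under shRNF185.1, 2 of 34 members were called higher and 0 lower (edgeR quasi-likelihood test, Benjamini-Hochberg adjusted p under 0.05), where 14.6% of all genes were called higher. Under shRNF185.3, 5 were higher and 0 lower, against 14.2% of all genes called higher. In the contrast of both hairpins' mean with control, 6 were higher and 0 lower, against 16.1% called higher. The median log2 fold change of the members was 0.10, 0.16 and 0.14 in these 3 comparisons, beside -0.02 over all genes in each. The comparisons share the control libraries. By role, 3 of 17 glycolytic enzymes, 2 of 4 flux regulators, 1 of 5 HIF and oxygen-sensing genes and 0 of 8 hypoxia targets were called in that last contrast. When batch 2 was left out, 24 members were called higher under shRNF185.1 (17.9% of all genes), 10 under shRNF185.3 (13.9%) and 24 in their mean (18.3%), and 0 lower in each. The shRNF185.1 count was 5 without control replicate 4. The summed level of 13 prostate and epithelial markers moved with the groups, from 1827 to 2668 CPM in control, 1137 to 1911 with shRNF185.1 and 1286 to 1507 with shRNF185.3, and its part in these results was not tested.

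Ldhb (ENSMUSG00000030246, chr6:142490249-142507957, GRCm38) encodes the lactate dehydrogenase subunit that favours lactate oxidation. Its lowest, median and highest levels were 1.74, 2.64 and 3.39 CPM in control, 3.36, 3.50 and 4.50 under shRNF185.1, and 3.56, 5.17 and 5.82 under shRNF185.3. All 6 shRNF185.3 libraries and 5 of 6 shRNF185.1 libraries lay above every control library. In edgeR, shRNF185.1 gave a log2 fold change of 0.54 (SE 0.16, adjusted p 0.0153) and shRNF185.3 gave 0.92 (SE 0.16, adjusted p 0.000237). The first of these was not called without batch 1 (0.0891) or without batch 3 (0.162, with a log2 fold change of 0.33). Of its 75-base windows, 12.6% match the copy Gm5514.

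Eno2 (ENSMUSG00000004267, chr6:124760053-124769673) is the neuronal enolase. It ran from 0.604 to 1.12 CPM in control with a median of 0.720, from 0.958 to 1.59 with shRNF185.1 with a median of 1.06, and from 1.08 to 1.81 with shRNF185.3 with a median of 1.31. These levels rest on 17 to 48 counts a library and the groups overlapped, with 2 and 4 of 6 hairpin libraries above all controls. The log2 fold changes were 0.55 (SE 0.20, edgeR adjusted p 0.0425) and 0.75 (SE 0.20, edgeR adjusted p 0.00759). The shRNF185.1 call was lost in DESeq2 (adjusted p 0.0547), with batch as a covariate (0.0693), with no filter (0.0931) and with libraries of a group and batch summed (0.0774). Both calls were lost without batch 1 or without batch 3.

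Pfkm (ENSMUSG00000033065, chr15:98092589-98132451) encodes the muscle phosphofructokinase. Its levels were 57.3, 68.4 and 72.8 CPM in control, 66.1, 68.9 and 80.1 under shRNF185.1, and 77.3, 84.8 and 89.9 under shRNF185.3. Every shRNF185.3 library exceeded every control library, and the shRNF185.1 libraries overlapped both other groups. Against control, shRNF185.3 gave a log2 fold change of 0.35 (SE 0.06, edgeR adjusted p 0.000469) and shRNF185.1 gave 0.08 (95% interval -0.06 to 0.21). Pfkfb4 (ENSMUSG00000025648, chr9:108991778-109032228), a bifunctional enzyme that sets the phosphofructokinase activator fructose 2,6-bisphosphate, had the same order. It was at 9.13, 9.87 and 10.8 CPM in control, 9.50, 9.84 and 10.7 under shRNF185.1, and 10.9, 12.3 and 12.5 under shRNF185.3, where all 6 libraries lay above all others. It differed from control by 0.29 (log2) with shRNF185.3 (SE 0.06, edgeR adjusted p 0.000587) and 0.01 with shRNF185.1 (95% interval -0.11 to 0.12).

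Pfkfb3 (ENSMUSG00000026773, chr2:11471433-11554077), another enzyme of that family, ran from 25.5 to 36.3 CPM in control, 29.5 to 46.7 with shRNF185.1 and 30.4 to 49.1 with shRNF185.3, with medians of 30.7, 35.4 and 37.4. The groups overlapped, and the log2 fold change was 0.34 with shRNF185.3 (SE 0.12, edgeR adjusted p 0.0425) and 0.27 with shRNF185.1 (0.107). Hif1a (ENSMUSG00000021109, chr12:73901375-73947530), the oxygen-regulated subunit, ran from 276 to 375 CPM in control, 333 to 434 with shRNF185.1 and 342 to 438 with shRNF185.3, with medians of 344, 378 and 394. Of the 6 libraries of each hairpin, 4 were above all controls. For the mean of both hairpins it stood 0.22 higher on the log2 scale (SE 0.08, edgeR adjusted p 0.0444). Batch as a covariate ended both calls, at an adjusted p of 0.0667 for Pfkfb3 with shRNF185.3 and 0.0679 for Hif1a.

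Between the hairpins, shRNF185.3 exceeded shRNF185.1 in 2 of 34 members and was lower in 0, where 7.72% of all genes were called higher. These were Pfkfb4 (log2 0.29, SE 0.06, edgeR adjusted p 0.00145) and Pfkm (log2 0.27, SE 0.06, edgeR adjusted p 0.0066). The median over members was 0.00, as over all genes. Adm, the vasodilator peptide adrenomedullin, had the widest gap at -1.21 (95% interval -2.15 to -0.27) and did not pass (edgeR adjusted p 0.0798). Without batch 2, Pfkfb4 was not called (log2 0.27, edgeR adjusted p 0.0577) and Pdk1 (-0.71, 0.00936) and Egln3 (-0.83, 0.031) were called lower. Without batch 3, Adm was called lower (-1.41, 0.0373), and Pfkm was not called without batch 1 (0.124) or with libraries of a group and batch summed (0.0625).

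**Figure D2:**
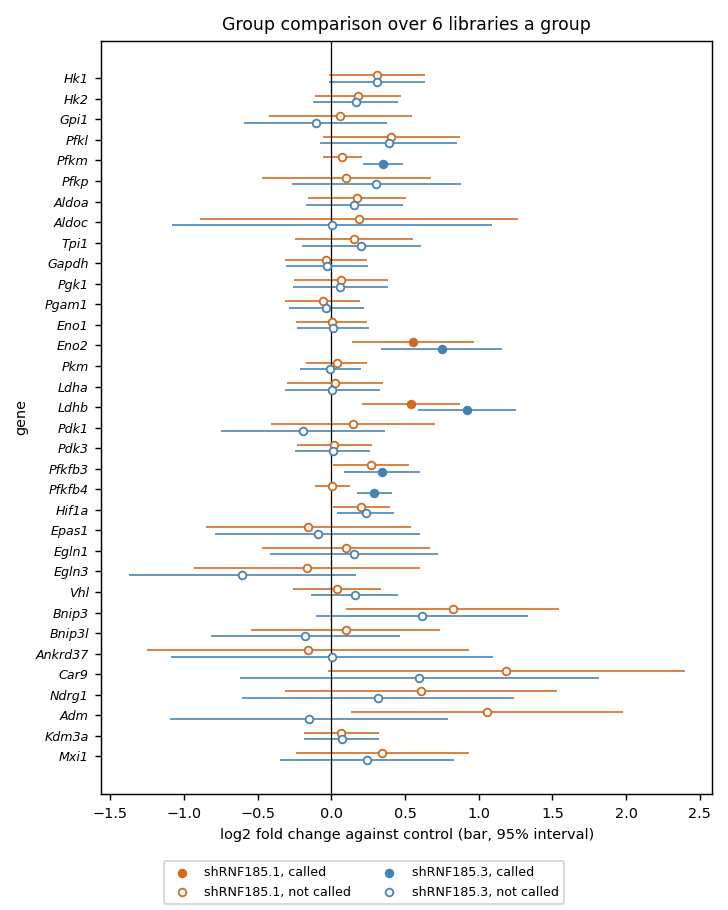
Log2 fold change against control of each gene, with 95% intervals, for shRNF185.1 (orange) and shRNF185.3 (blue) over 6 libraries a group; filled points were called at an adjusted p under 0.05. Filled points are few and all on the right, and the widest intervals belong to Car9, Aldoc, Ankrd37, Adm and Ndrg1.

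The 28 members not called for the mean of both hairpins included most of the abundant enzymes, among them Ldha (log2 0.02, 95% interval -0.27 to 0.30), Gapdh (-0.03, -0.27 to 0.21) and Pkm (0.01, -0.16 to 0.19). The hypoxia targets had wide intervals, such as Car9 (0.89, -0.19 to 1.97) and Ankrd37 (-0.08, -1.02 to 0.86). Replicates of these genes were widely spread. The median within-group SD of log2 CPM over members was 0.38 in control, 0.33 with shRNF185.1 and 0.23 with shRNF185.3, beside 0.17, 0.16 and 0.13 over all genes tested.

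The batches differed in the group effects. A model with a mean for each group in each batch, added after seeing the data, tested whether the hairpin effects differed between batches. The interaction passed for 26 of 34 members, against 9.81% of all genes (edgeR, 4 degrees of freedom). They were 13 of 17 glycolytic enzymes, 2 of 4 flux regulators, 3 of 5 HIF and oxygen-sensing genes and all 8 hypoxia targets. The group comparison had no batch term, so an effect that changed between batches widened its spread and made a call there less likely. Its calls and the interaction are thus not independent. The 8 that did not pass the interaction were Eno2, Ldhb, Pfkm, Pkm, Pfkfb3, Pfkfb4, Hif1a and Epas1, which hold the 6 genes called in the group comparison. Without control replicate 4 the count was 17, and without shRNF185.1 replicate 4 it was 16. The deposited counts had been adjusted for batch, and over members the group-averaged batch means differed by a median of 0.04 and at most 0.72 on the log2 scale, so only differences between groups of a batch are described.

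With shRNF185.1, members were higher than control in batches 1 and 3 and lower in batch 2. In batch 1, 10 of 34 were called higher and 0 lower (median log2 fold change 0.42), against 7.81% of all genes called higher. In batch 2, 24 were called lower and 0 higher (median -0.61), against 9.43% called lower. In batch 3, 25 were higher and 0 lower (median 0.76), against 14.1% called higher. Both shRNF185.1 libraries lay above both controls in 30 members in batch 1 (27.6% of all genes), below them in 28 in batch 2 (31.7%), and above them in 30 in batch 3 (28.1%). Calls in both directions were made for 18 members, lower in batch 2 and higher in batch 3, against 1.71% of all genes. Of these, 8 were also called higher in batch 1, against 0.370% of all genes: Hk1, Pfkl, Pfkp, Pdk1, Ankrd37, Car9, Ndrg1 and Mxi1. The shRNF185.1 effect in batch 2 was below the mean of its effects in batches 1 and 3 for 28 members and above it for 0, against 10.3% of all genes below.

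With 2 libraries a cell, counts within a batch depended on single libraries. Without any of the 4 libraries of control and shRNF185.1 in batch 1, the count of 10 became 0 to 2. In batch 2 it was 8 without control replicate 4, 10 without shRNF185.1 replicate 3 and 9 without shRNF185.1 replicate 4. The difference of batch 2 from the others held in 24 to 29 members when any library was left out.

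With shRNF185.3, members were called mainly in batch 3. In batch 1, 0 of 34 members were called (edgeR; 3 at an unadjusted p under 0.05), against 6.04% of all genes. In batch 2 the median log2 fold change was -0.26, with 14 members at an unadjusted p under 0.05 in edgeR. Both shRNF185.3 libraries there lay below both controls in 22 members (26.5% of all genes) and above both in 6 (25.3%). Called lower in batch 2 were 4 members, against 4.94% of all genes: Gpi1, Pdk1, Egln3 and Ankrd37. This count was 2 without control replicate 4, 1 without shRNF185.3 replicate 3, and 7 without either shRNF185.1 library of batch 3. In batch 3, 27 were higher and 0 lower (median log2 0.75), against 14.4% called higher, and 17 without shRNF185.3 replicate 6. The shRNF185.3 effect in batch 2 fell below the mean of the other batches for 7 members, against 1.45% of all genes, and this count was 1 without control replicate 4 or without shRNF185.3 replicate 3 and 12 without control replicate 6. Tested directly, shRNF185.3 was below shRNF185.1 in batch 1 for Pfkp, Pdk1 and Ankrd37, 3 of 34 members against 0.489% of all genes. It was above shRNF185.1 in batch 2 for Pfkp and Pdk1, 2 of 34 against 1.09%. In batch 3, 0 members differed between the hairpins (edgeR; 8 at an unadjusted p under 0.05), against 1.11%.

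**Figure D3:**
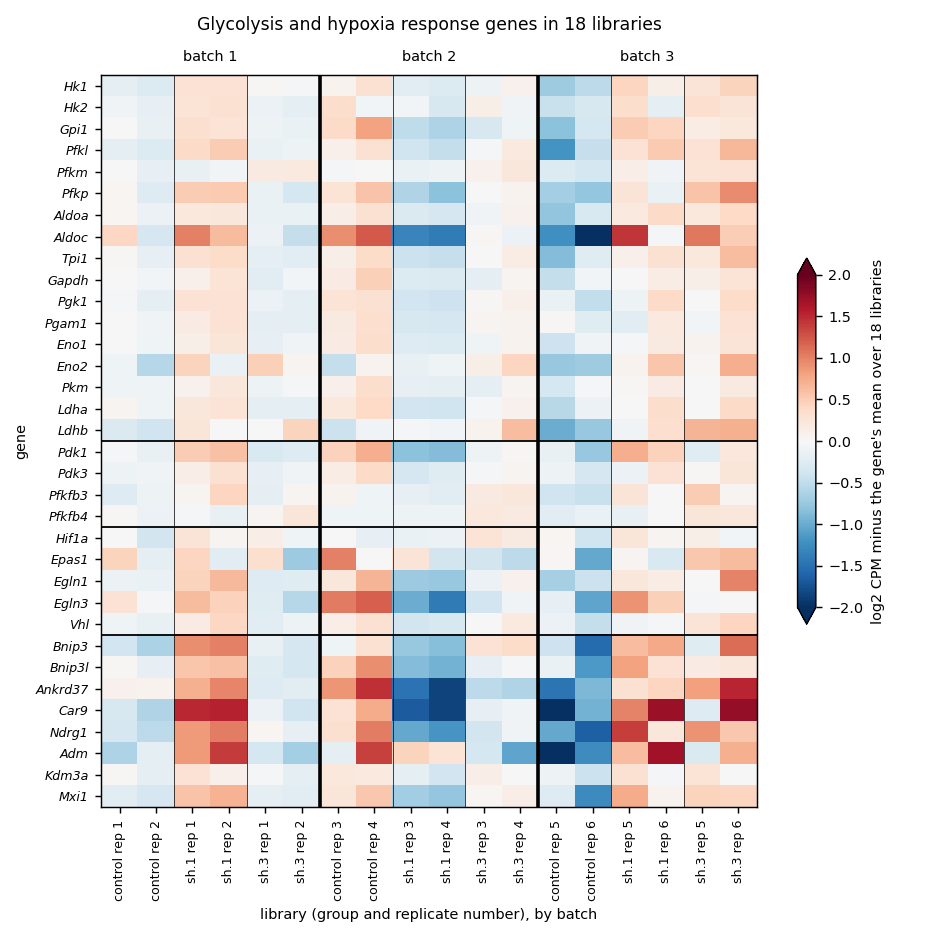
Log2 CPM of each gene minus its mean over 18 libraries (red higher, blue lower; colours end at 2 on either side), with columns grouped by batch and group and rows by role. Within batches 1 and 3, shRNF185.1 is mostly redder than control, and within batch 2 it is mostly bluer.

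With batch means nearly equal after the adjustment, a group that is low in a batch goes with others that are high there, so the positions given next show the order of groups within a batch and not a change of 1 group between batches. Relative to each gene's mean over 18 libraries, the median member stood at -0.02 and -0.17 on the log2 scale in the controls of batch 1, at 0.17 and 0.35 in batch 2 and at -0.43 and -0.47 in batch 3. The shRNF185.1 libraries stood at 0.30 and 0.30, -0.35 and -0.38, and 0.25 and 0.22. Those of shRNF185.3 stood at -0.14 and -0.18, -0.04 and 0.08, and 0.18 and 0.39. Control replicate 4, the highest control, was also the deepest library, while control replicate 3, the other control of that batch and also high, had 24067000 counts. The part of depth in the pattern was not tested. Rnf185 itself had shRNF185.1 log2 fold changes of -2.61, -2.75 and -2.52 in batches 1 to 3.

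The members described next were chosen after their values were seen, for the size of their batch difference or their role. Car9 (ENSMUSG00000028463, chr4:43506966-43513729) encodes a carbonic anhydrase of the cell surface that is a classic hypoxia marker. In batch 1 it was 9.77 and 8.07 CPM in control, 34.7 and 35.6 under shRNF185.1, and 11.2 and 9.19 under shRNF185.3. In batch 2 the values were 14.9 and 20.4, then 3.80 and 3.33, then 10.9 and 11.6, in the same order. The shRNF185.1 libraries were thus the highest of batch 1 and the lowest of batch 2. In batch 3 control was at 2.7 and 6.34, shRNF185.1 at 24.4 and 40.4, and shRNF185.3 at 10.2 and 41.5. The shRNF185.1 log2 fold changes were 1.98, -2.31 and 2.83 in batches 1 to 3 (edgeR adjusted p 0.0166, 0.0102 and 0.00154), and the interaction adjusted p was 0.00396.

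Ndrg1 (ENSMUSG00000005125, chr15:66929318-66969640), a stress-response gene that is also androgen-responsive in prostate, had the same course. Control was at 116 and 102 CPM in batch 1, 182 and 298 in batch 2, and 71.8 and 47.2 in batch 3. With shRNF185.1 the values were 264 and 296, then 72.1 and 64.8, then 379 and 171. In every batch the shRNF185.1 libraries were separate from control, with log2 fold changes of 1.36, -1.81 and 2.21 (edgeR adjusted p 0.0123, 0.00242 and 0.000376). With shRNF185.3 they were 0.36, -0.93 and 2.03, of which only the last was called (0.000683).

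Ankrd37 (ENSMUSG00000050914, chr8:45996902-46005707), an ankyrin repeat gene induced by HIF, had the lowest interaction p of the members (edgeR adjusted p 0.000116). Control was at 12.7 and 12.6 CPM in batch 1, 22.0 and 32.9 in batch 2, and 4.30 and 6.37 in batch 3. With shRNF185.1 it was at 19.5 and 23.6, 4.22 and 3.26, and 14.7 and 16.2. The shRNF185.1 libraries were above both controls in batches 1 and 3 and below both in batch 2. The mitophagy receptors Bnip3 and Bnip3l followed, with shRNF185.1 log2 fold changes of 1.47, -0.93 and 1.56 for Bnip3 (the second not called, edgeR adjusted p 0.087) and 0.65, -1.62 and 1.11 for Bnip3l (the first not called, 0.0983). Adm differed with 1.56, -0.45 and 2.95, of which only batch 3 was called (0.00173). Mxi1, a MYC antagonist, had 0.91, -1.13 and 1.12, all called, and the histone demethylase Kdm3a had 0.28, -0.49 and 0.40, of which the last pair were called. Ankrd37 overlaps Lrp2bp and Ufsp2 on the opposite strand over 406 of 1539 exonic bases, and whether the counting used strand is not given in the sources used here.

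**Figure D4:**
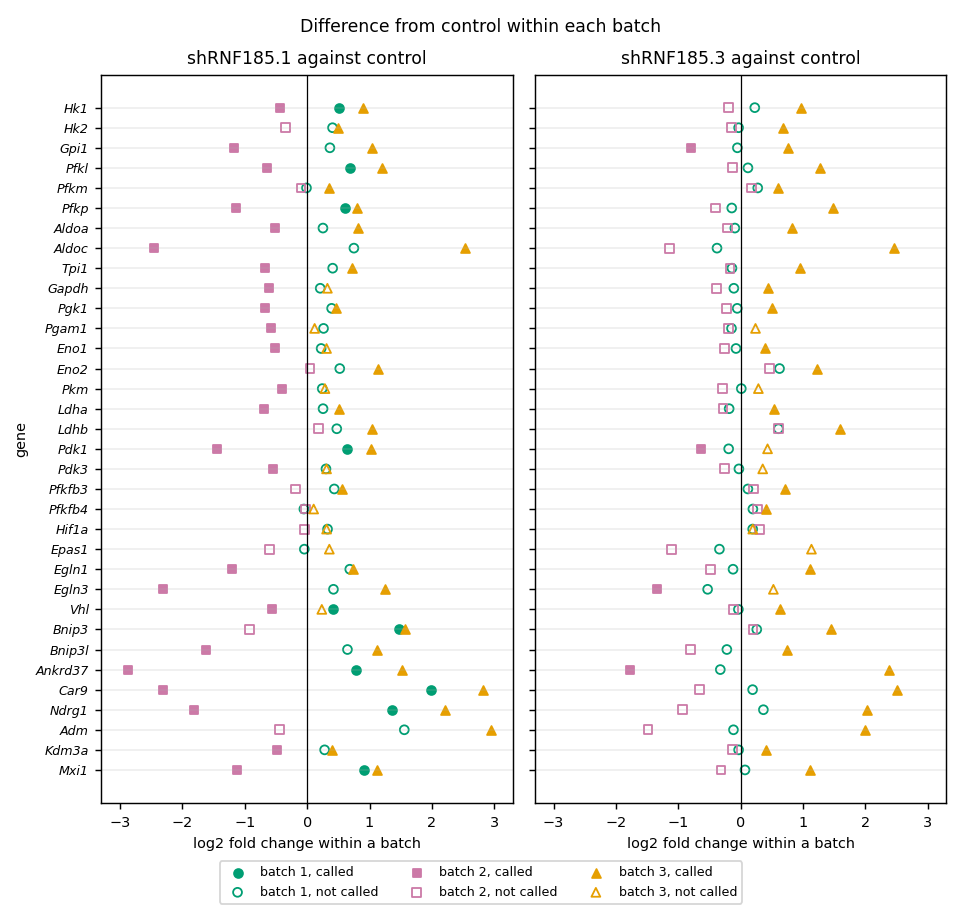
Log2 fold change against control within each batch (green circles, batch 1; purple squares, batch 2; orange triangles, batch 3) for shRNF185.1 (left) and shRNF185.3 (right); filled symbols were called. On the left the squares lie below 0 for 32 of 34 genes while triangles lie above 0 for all 34; on the right the circles gather around 0.

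The 3 oxygen-sensing genes passed the interaction test and the alpha subunits did not. Egln3, the prolyl hydroxylase most strongly induced by HIF, was at 156 and 125 CPM in the controls of batch 1, 263 and 296 in batch 2, and 114 and 62.0 in batch 3. With shRNF185.1 it was at 198 and 178, 64.6 and 48.0, and 241 and 178. The log2 fold changes were 0.42, -2.31 and 1.25, the last pair called (edgeR adjusted p 0.000139 and 0.00243). Egln1, the main hydroxylase of normal oxygen, had 0.68, -1.21 and 0.73, the last pair called, and Vhl had 0.41, -0.56 and 0.23, the first pair called. Hif1a had 0.33, -0.05 and 0.31 and an interaction adjusted p of 0.431, with no batch called for either hairpin. Epas1, at 0.220 to 1.12 CPM in control, had an interaction adjusted p of 0.304.

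Among the flux regulators, Pdk1, the kinase that closes pyruvate dehydrogenase and a HIF target, was called in every batch with shRNF185.1, at 0.64, -1.44 and 1.03. Its control levels were 141 and 130 CPM in batch 1, 198 and 238 in batch 2, and 129 and 84.8 in batch 3, against 206 and 216, 81.6 and 79.5, and 239 and 198. Those groups overlapped in no batch. Pdk3 had 0.30, -0.56 and 0.31, of which only batch 2 was called. Pfkfb4 had shRNF185.1 values of -0.05, -0.03 and 0.10 and an interaction adjusted p of 0.854.

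Along the pathway, 13 of 17 enzymes were called lower with shRNF185.1 in batch 2 and 13 called higher in batch 3. Aldoc, the brain-type aldolase, moved most, from 18.5 and 22.6 CPM in control to 3.83 and 3.64 in batch 2, and from 4.08 and 2.07 to 26.1 and 9.41 in batch 3. Its log2 fold changes there were -2.46 and 2.54 (edgeR adjusted p 0.00229 and 0.00108), and 2.46 with shRNF185.3 in batch 3 (0.00136). Gpi1, the isomerase after hexokinase, had -1.17 and 1.04, and Pfkp had -1.14 and 0.80. Hk1, the entry enzyme, was called in all 3 batches at 0.52, -0.43 and 0.90. The abundant enzymes of the lower pathway had smaller shifts.

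Gapdh was at 1565 and 1959 CPM in the batch 2 controls and 1157 and 1145 with shRNF185.1, a log2 fold change of -0.62 (edgeR adjusted p 0.0122), while its batch 3 value of 0.32 was not called (0.118). Ldha was at 2572 and 2958 against 1727 and 1692 CPM in batch 2 (-0.70, 0.00963) and at 1525 and 2054 against 2217 and 2869 in batch 3 (0.51, 0.0302). Its groups were separate in both. Pgk1 had -0.68 and 0.46, Tpi1 -0.68 and 0.73, Aldoa -0.52 and 0.82, and Pfkl -0.65 and 1.20, all called. Pgam1, Eno1 and Pkm were called lower in batch 2, at -0.59, -0.52 and -0.40, and not called in batch 3. Hk2 was not called in batch 2 (-0.35, 0.145) and was called in batch 3 (0.50, 0.0333). Gapdh, often used as a reference gene, thus differed from control by batch in these libraries (interaction adjusted p 0.0241).

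**Figure D5:**
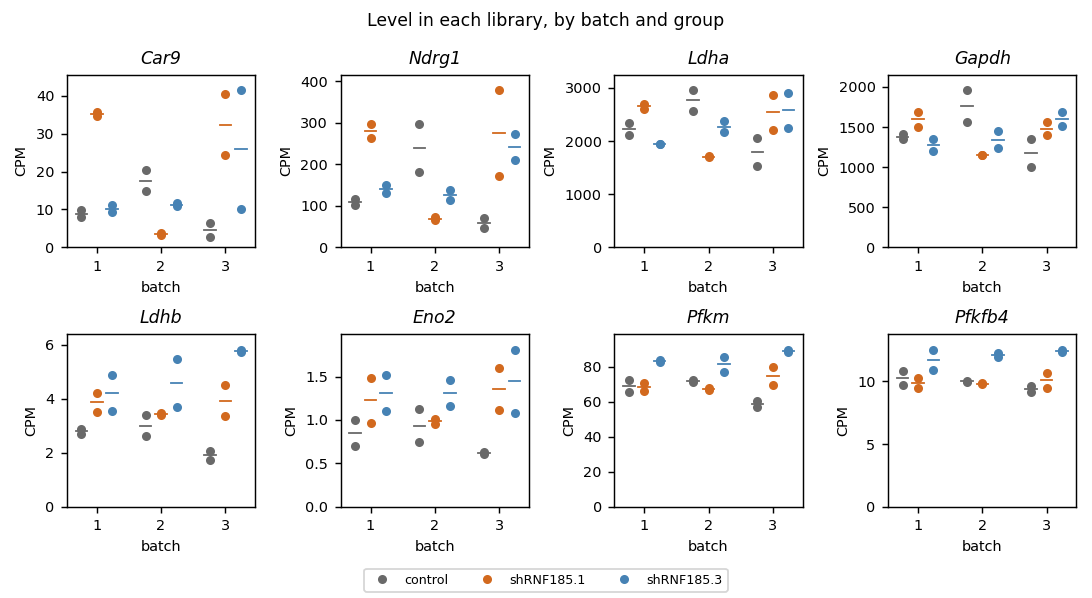
CPM of 8 genes in each library by batch (points; bars are means of 2 libraries) for control (grey), shRNF185.1 (orange) and shRNF185.3 (blue). Car9, Ndrg1, Ldha and Gapdh reverse the order of control and shRNF185.1 in batch 2, and Ldhb, Eno2, Pfkm and Pfkfb4 have the shRNF185.3 mean above the control mean in every batch.

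The group comparison favours genes whose effects are alike in all batches. The 6 genes called there were above control in all 3 batches with shRNF185.3, and with shRNF185.1 this held only for Ldhb and Eno2. Ldhb had log2 fold changes of 0.61, 0.61 and 1.60, Eno2 0.62, 0.47 and 1.23, Pfkm 0.27, 0.18 and 0.60, and Pfkfb4 0.20, 0.28 and 0.41. For each of these 4 genes only batch 3 was called alone. Pfkfb3 had 0.12, 0.21 and 0.72, also called only in batch 3, and Hif1a had 0.19, 0.30 and 0.19, called in no batch. With shRNF185.1 in batch 2, Pfkfb3 (-0.19), Pfkm (-0.10), Hif1a (-0.05) and Pfkfb4 (-0.03) were below control, none of them called, while Ldhb (0.19) and Eno2 (0.04) were above it, also not called.

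Other genes of the pathways were taken from lists. Of 34 tested among 36 other hypoxia response genes, 25 passed the interaction, against 9.81% of all genes. With shRNF185.1, 12 of the 34 were called higher and 1 lower in batch 1, against 7.81% of all genes called higher. In batch 2, 1 of the 34 was higher and 22 lower, against 9.43% called lower. In batch 3, 19 were higher and 1 lower, against 14.1% called higher. In the mean of both hairpins, 5 of these 34 were called higher and 5 lower, against 16.1% and 16.8% of all genes. Nos2, the inducible nitric oxide synthase, ran from 5.87 to 17.1 CPM in control, 19.0 to 71.8 under shRNF185.1 and 30.9 to 80.1 under shRNF185.3, with a log2 fold change of 2.05 (SE 0.32, edgeR adjusted p 7.02e-05). It passed the interaction (edgeR adjusted p 0.0113), and its shRNF185.1 value in batch 2 was 0.31 against 2.85 and 2.48 in batches 1 and 3. The lipase inhibitor Angptl4 (-1.10) and the growth factor binding protein Igfbp3 (-0.71) fell in the mean of both hairpins. With shRNF185.1, Angptl4 had -0.32, -1.51 and -0.26 in batches 1 to 3, of which only batch 2 was called. It was lower with shRNF185.3 than with shRNF185.1 (-0.74, edgeR adjusted p 0.0244). Igfbp3 passed the interaction (edgeR adjusted p 0.0160) and was not called in batch 3 with shRNF185.1 (-0.08) or shRNF185.3 (-0.20). Among 7 transport genes, 0 were called for the mean of both hairpins, and 3 passed the interaction: the glucose transporters Slc2a1 and Slc2a8 and Bsg, the chaperone of lactate transporters, named after their values were seen.

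In the other lists, against 9.81% of all genes, the interaction passed for 1 of 13 other glycolytic isoforms and regulators (Pgm1), 0 of 12 genes of pyruvate dehydrogenase and pyruvate entry, 0 of 8 of the pentose phosphate pathway and 0 of 14 HIF partners and regulators. Pgm1, which links glycogen to glycolysis, rose by 0.87 on the log2 scale for the mean of both hairpins, with an interaction adjusted p of 0.00352 in edgeR. Its shRNF185.1 value was -0.50 in batch 2 (not called, 0.138) against 1.41 and 1.83 in batches 1 and 3. Bpgm and Tigar fell, at -0.58 and -0.53, among 3 higher and 2 lower of 13 for the mean of both hairpins. In that contrast 16.1% of all genes were called higher and 16.8% lower, and these shares also stand beside the list counts that follow. Pcx, which carboxylates pyruvate, rose by 0.78 (SE 0.05, edgeR adjusted p 2.51e-09), among 1 higher and 3 lower of 12, with Pdpr (-0.28) and Mpc1 (-0.18) lower. In the pentose phosphate pathway, 1 was higher (H6pd, 0.37) and 2 lower (Rpia, -0.30, and Rpe, -0.29). Rpia was called lower with shRNF185.3 (-0.61, edgeR adjusted p 7.49e-05) and was not called with shRNF185.1 (0.008, 0.960). H6pd was called higher with shRNF185.3 (0.47, edgeR adjusted p 0.00165) and was not called with shRNF185.1 (0.26, 0.0607). For the mean of both hairpins, 5 of the 14 HIF partners were higher and 1 lower. The higher ones included Cited2 (0.40), the HIF partner subunit Arnt (0.33, edgeR adjusted p 2.43e-05) and Usp20 (0.29).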

How the data were processed

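RNA was selected for poly(A), made into directional libraries and read from a single end over 75 bases, per the labels' protocols. The submitters' processing notes name cutadapt 2.3, STAR 2.7.0d, RSEM 1.3.1 and mm10, with no roles, and the annotation is not given in the sources used here. The authors deposited expected counts after ComBat-Seq batch adjustment, per the file headers and labels, in which 0.466% of values were not whole. Whether the adjustment was given the group is not stated, and it can alter differences between batches. The authors also deposited library-scaled counts (CPM), a normalised signal whose sums ranged from 969986 to 1026394.

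Counts were rounded and tested in R 4.3.3 with edgeR 4.0.16: filterByExpr (minimum count 10), TMM scaling, a mean per group over 18 libraries, the quasi-likelihood F test and Benjamini-Hochberg adjustment over 14309 genes. The design had assumed whole counts. Log2 CPM used a prior count of 2. The model of group and batch was added after seeing the data. Scripts were tested on simulated counts. Coordinates, lengths and shared 75-base windows came from GENCODE M21 on GRCm38, and 99.1% of identifiers matched a symbol. The members and lists were chosen with earlier results of these data known. Per-library values were given for members called for the mean of both hairpins or between hairpins, and other members were named for their batch values after these were seen. From each other list, at most 3 called genes of mean count 50 or more were named by fold change. Alternatives were other scalings, DESeq2 1.42.0, limma 3.58.1, no filter, a GC and length offset, a batch term, a replicate block, summed libraries, and leaving out batches or libraries.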

Additional observations from a re-analysis of the deposited data

Results flagged for a closer look

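In 3 of 102 sets of 6 libraries, a library stood apart from the rest of its group by Dixon's criterion, where chance gives about 5.1. Pfkm with shRNF185.1 was 80.1 CPM in replicate 5, with the other 5 between 66.1 and 70.8. Egln1 with shRNF185.3 was 435 CPM in replicate 6, with the others between 183 and 233. Car9 with shRNF185.3 was 41.5 CPM in the same library, with the others between 9.19 and 11.6. Both hairpins target Rnf185, and their effects differed for 2 members: shRNF185.3 was above shRNF185.1 by 0.27 on the log2 scale for Pfkm and by 0.29 for Pfkfb4 (edgeR adjusted p 0.0066 and 0.00145).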

How the results depend on the processing

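Counts of members called depended on which batches entered the fit, and within a batch on single libraries. With shRNF185.1 the count of 2 became 1 in DESeq2, with no filter and with a batch covariate. It was 0 when batch 1 or batch 3 was left out or libraries of a group and batch were summed, and 24 without batch 2. With shRNF185.3 the count of 5 became 3 without batch 1 or batch 3 and 10 without batch 2. For the mean of both hairpins the count of 6 became 3 with no filter, 2 without batch 1, 24 without batch 2 and 1 without batch 3. Between the hairpins the count of 2 became 1 without batch 1 and with summed libraries. Without batch 2 it was 3, of which 1 was higher and 2 lower. Without batch 2 the mean of both hairpins turned to 0.51 (log2) for Gpi1, 0.47 for Pdk1, 0.56 for Bnip3l and 1.06 for Ankrd37, and the shRNF185.1 value of Egln3 to 0.80. Within batches, no filter gave 21 with shRNF185.1 in batch 1, 2 and 12 with shRNF185.3 in batches 1 and 2, and 21 for batch 2 against the other batches with shRNF185.3. The cause of these shifts was not tested.

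Leaving out each library in turn gave 1 to 5, 4 to 6, 4 to 8 and 2 to 3 members for the 4 group comparisons in the order above. It gave 0 to 12, 8 to 25 and 18 to 25 for shRNF185.1 and 0 to 0, 1 to 7 and 17 to 28 for shRNF185.3 in batches 1 to 3, 24 to 29 and 1 to 12 for batch 2 against the others, and 16 to 28 for the interaction. A cell left with 1 library was assumed to vary like the others.

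A replicate block gave 2, 5, 4 and 2 called members. Deviations of same-numbered libraries correlated at a mean r of -0.01 over 18 pairs (-0.63 to 0.71). The mean r was -0.43 for the other number of the same batch and 0.11 for other batches. A library correlated best with its own number in 4 of 36 cases. The batch adjustment made batch means nearly equal, which sets groups of a batch against each other. These correlations therefore cannot decide whether same-numbered libraries were paired. Other scalings moved the median gene by less than 0.1 (log2). Of the low members, Eno2 and Epas1 rest on 7 to 48 counts a library.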
